A study of Arabidopsis thaliana with 104 samples.

Results

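The 8 genes described here encode the enzymes that build sulfolipid and the galactolipids in Arabidopsis thaliana, and they were picked by locus from a count table of 27206 loci. They are UGP3 (AT3G56040), SQD1 (AT4G33030) and SQD2 (AT5G01220) for sulfolipid, MGD1 (AT4G31780), MGD2 (AT5G20410) and MGD3 (AT2G11810) for monogalactosyldiacylglycerol, and DGD1 (AT3G11670) and DGD2 (AT4G00550) for digalactosyldiacylglycerol. All 8 passed the filter on low counts, which left 18926 genes. Polyadenylated RNA came from whole seedlings of phr1 phl1, phr1 and the wild-type accession Col-0, all germinated for 7 days on 1 mM inorganic phosphate (Pi) with 0.5% sucrose. The seedlings then spent 12 days without sucrose on low Pi (50 µM) or high Pi (625 µM), with a bacterial synthetic community (SynCom) or with no bacteria. Each genotype was thus grown in 4 conditions, low Pi with SynCom, high Pi with SynCom, low Pi without bacteria and high Pi without bacteria, which gave 12 groups. Each phr1 phl1 group held 6 libraries, from experiments C, D and E, and each phr1 and Col-0 group held 10, from experiments A to E, with 2 libraries per group and experiment. The mutants carry lesions in PHR1, or in PHR1 and PHL1, related transcription factors that switch on genes of Pi starvation, and the labels do not name their alleles.

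Chloroplast membranes consist mainly of galactolipids, which hold no phosphorus, with smaller amounts of sulfolipid and phosphatidylglycerol. UGP3 makes UDP-glucose inside the plastid, SQD1 turns it into UDP-sulfoquinovose, and SQD2 transfers the sulfoquinovose to diacylglycerol. MGD1 is the galactolipid synthase of the inner plastid envelope that serves the photosynthetic membranes, whereas MGD2 and MGD3 act at the outer envelope and are known as the synthases of Pi-starved plants. DGD1 makes the bulk of the digalactosyl lipid, and DGD2 is a further enzyme of that step known from Pi starvation. When Pi is scarce, plants take phospholipids apart and use glycolipids in their place, also in membranes outside the plastid.

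PHR1 is known to bind a palindrome called P1BS, and its letters, GNATATNC, were searched on both strands of the RefSeq assembly TAIR10.1. In the 1000 bases before the gene start, 2 of the 8 genes held it, SQD2 and MGD2, against 20.25% of 27443 genes. The 250 bases before the gene start held it in 1 of 8, MGD2, against 5.46% of all genes. A window that ends at the start codon instead, chosen after the first result was seen, takes in 5′ UTRs. In its 1000 bases 7 of the 8 genes, all but MGD3, held the letters, against 18.69% of all genes. The match nearest to the start codon of each is shown here, because the letters stand before 6 genes that rose at low Pi in Col-0 as well as before MGD1, which did not rise, while MGD3, with the largest fold between low and high Pi, held none in this window. Capitals mark the P1BS letters, each sequence reads 5′ to 3′ on the strand of its gene, and all 7 lie in annotated 5′ UTR exons.
UGP3 chr3:20797554-20797583 (- strand): agtgattctggGCATATGCttggagtatct
SQD1 chr4:15935376-15935405 (+ strand): ggaataagtaaGAATATGCtttgggcatat
SQD2 chr5:90003-90032 (- strand): cctcacaaagaGGATATACctctctttcgt
MGD1 chr4:15374002-15374031 (+ strand): aattgcccacaGAATATTCggataagtatt
MGD2 chr5:6896489-6896518 (+ strand): tcgaggaccttGAATATTCgaatcttttca
DGD1 chr3:3684813-3684842 (- strand): cttcgattccaGCATATTCctaagttaaat
DGD2 chr4:240367-240396 (- strand): agatcttccgaGAATATTCtctccttctca
The distances from the letters to the start codon were 83 bases in UGP3, 129 in SQD2, 202 in MGD1, 258 in MGD2, 329 in DGD1, 359 in DGD2 and 657 in SQD1. These are matches of letters, and binding was not measured.

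Depth spanned 955174 to 9550846 counts, with the median library at 4335782. At low Pi with SynCom, the median was 2695984 in phr1 phl1, 4781729 in phr1 and 5248210 in Col-0. PHR1 averaged 38.6 ± 9.24 CPM (read counts scaled to the library size) in phr1 phl1 (SD, n = 24) and 37.0 ± 9.48 in phr1, against 68.0 ± 9.92 CPM in Col-0 (n = 40 each). PHL1 averaged 135 ± 182 CPM in phr1 phl1 and 13.8 ± 3.87 in phr1, against 13.5 ± 3.66 CPM in Col-0, so its transcript count was highest in the mutant named for it. Counts over a whole gene do not show whether an allele makes a functional protein, and the genotypes are taken from the labels. After the fit 4 libraries stood apart by depth or scatter, 1 each of phr1 high Pi without bacteria, phr1 phl1 high Pi without bacteria, Col-0 low Pi with SynCom and phr1 phl1 low Pi without bacteria. Without them the number of the 8 genes called was the same in 25 of 26 comparisons. UGP3 overlaps a gene and a noncoding RNA on the other strand and MGD1 overlaps AT4G31790, and since the libraries carry no strand information, reads in the overlaps cannot be told apart. Markers of shoot tissue moved with Pi in the presence of SynCom. The 10 photosynthesis genes of phr1 phl1 summed to a median of 34557 CPM under low Pi and 52309.9 CPM under high Pi. In phr1 the median sums were 31342 against 49517 CPM, and in Col-0 29177 against 54338 CPM. The Col-0 sums at low Pi ran from 1772 to 45792 CPM. The lowest came from library 2 of experiment D, far below the next at 17762 CPM, and this library is 1 of the 4 that stood apart. Root markers, 9 tested of 10 listed, summed to 169.9 against 140.4 CPM in phr1 phl1, 224 against 299 in phr1 and 337 against 384 in Col-0. The median log2 fold change of the single root markers, without the 4 libraries, was 0.094 in phr1 phl1, 0.18 in phr1 and 0.37 in Col-0. It was thus positive in phr1 and Col-0, where the sums were lower at low Pi. No marker of either list was at 0 in every library of a group. A lower share of a cell type and less RNA per cell cannot be told apart in whole seedlings, and the part of these markers in the results on the 8 genes was not tested.

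**Figure D1:**
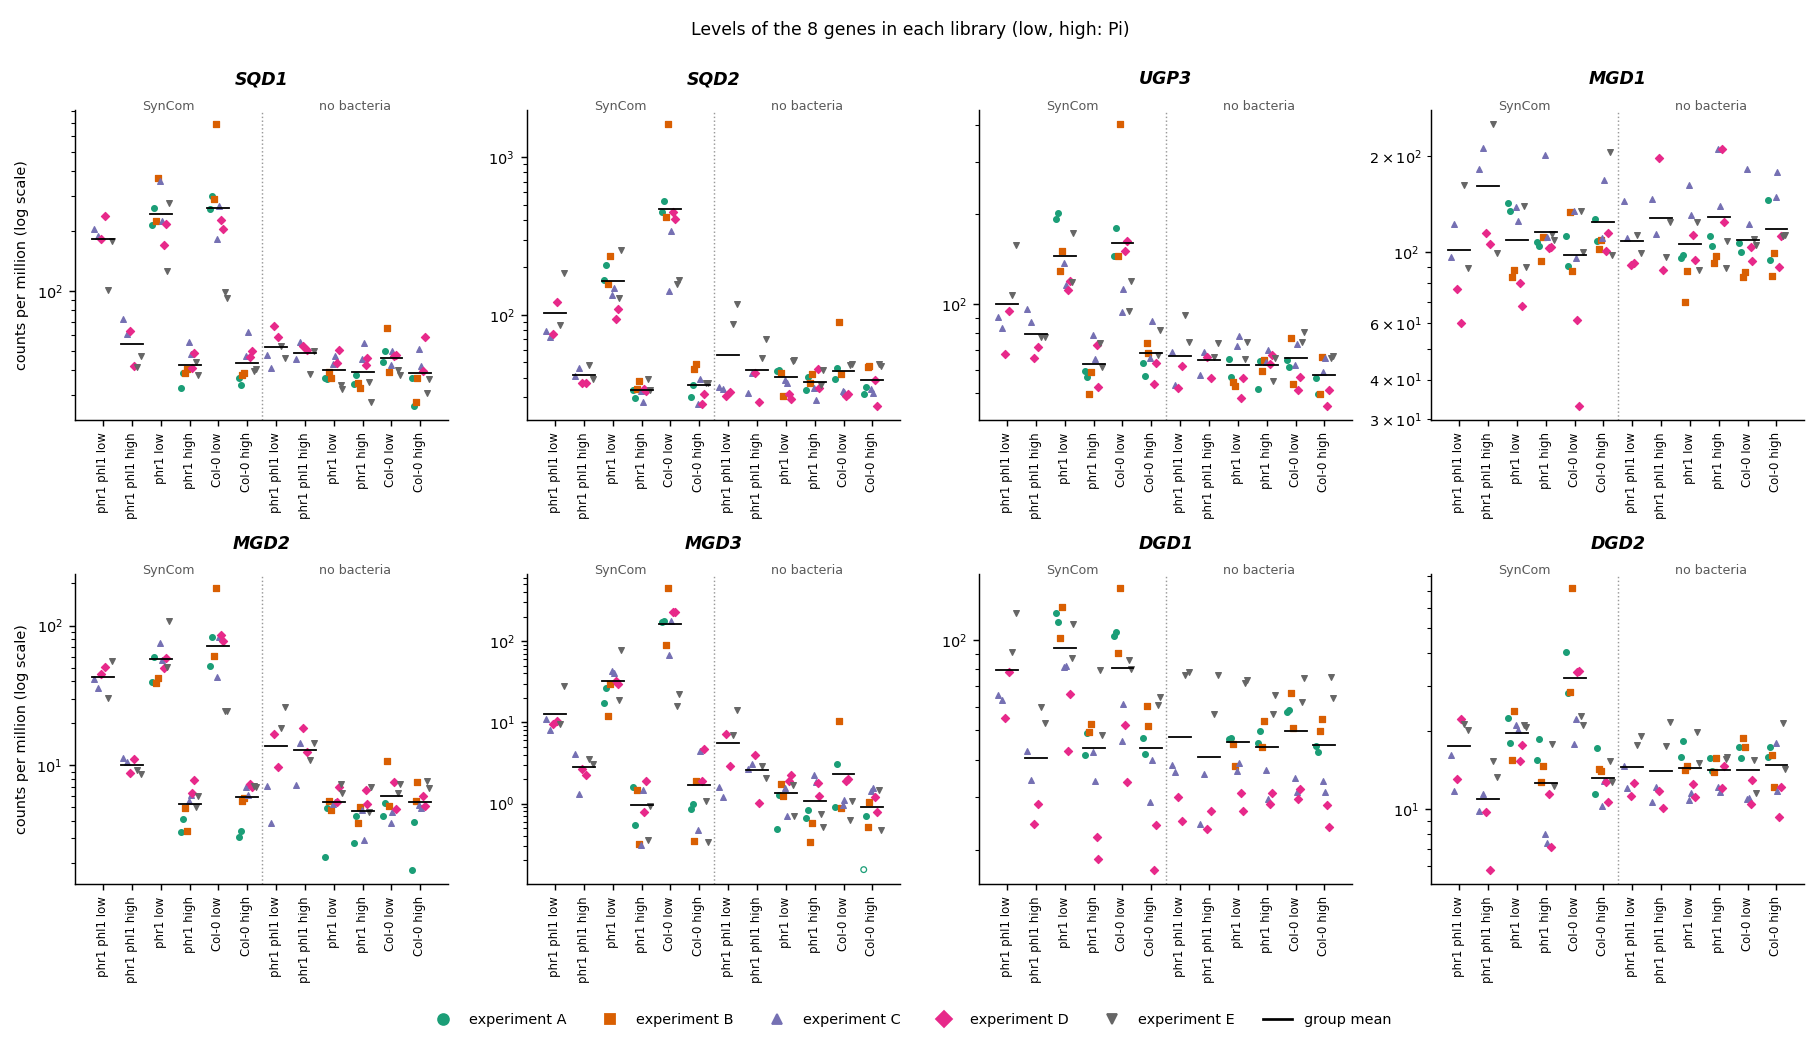
CPM (log scale) of each of the 8 genes, 1 point per library, coloured by experiment, by genotype and condition, with the group mean as a bar and a library at 0 counts drawn as an open point below the rest. The points of MGD3, MGD2, SQD2 and SQD1 at low Pi with SynCom lie above those at high Pi with SynCom in every genotype, and the points of MGD1 do not.

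The first question was how the genes responded to low Pi when the bacteria were present. With SynCom, 6 of the 8 genes rose and 1 fell at low Pi in phr1 phl1, and 7 rose in phr1 and in Col-0, by edgeR's quasi-likelihood test with Benjamini-Hochberg adjustment over all genes at 0.05. Of all genes tested, 19.2% were called in phr1 phl1, 23.8% in phr1 and 49.4% in Col-0, and 10.4%, 13.0% and 27.2% were called higher, with 8.87% lower in phr1 phl1. The median log2 fold change of the 8 genes, low over high Pi, was 1.14 in phr1 phl1, 1.73 in phr1 and 1.92 in Col-0, beside 0.012, 0.018 and 0.045 over all genes. The lowest library at low Pi exceeded the highest at high Pi for 4 of the 8 genes in phr1 phl1, where 0.935% of all genes did so. It did so for 5 of 8 in phr1, against 0.470% of all genes, and for 6 of 8 in Col-0, against 0.830%. In every genotype these included SQD1, SQD2, MGD2 and MGD3. The comparisons of the 3 genotypes share no library, but they share the experiments.

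Among the sulfolipid genes, SQD1, the UDP-sulfoquinovose synthase, rose in all 3 genotypes. SQD1 in phr1 phl1 stood at 102 CPM in its lowest library, 187 at the median and 239 in its highest at low Pi, against 41.6, 54.1 and 72.4 CPM at high Pi. SQD1 in phr1 stood at 126 CPM in its lowest library, 225 at the median and 370.1 in its highest at low Pi, against 32.5, 40.9 and 55.6 CPM at high Pi. SQD1 in Col-0 stood at 92.2 CPM in its lowest library, 244 at the median and 692 in its highest at low Pi, against 33.6, 40.1 and 62.5 CPM at high Pi. Low-Pi libraries of SQD1 lay above all high-Pi libraries of the same genotype. Low over high Pi, the log2 fold change was 1.74 ± 0.21 (SE) in phr1 phl1 (adjusted p = 2.57e-09), 2.51 ± 0.16 in phr1 (adjusted p = 9.17e-24) and 2.56 ± 0.17 in Col-0 (adjusted p = 1.39e-24). By experiment the Col-0 difference lay between 1.25 in E and 3.53 in B, a wider spread than the 2.09 to 2.84 of phr1.

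SQD2, the transferase that completes sulfolipid, also rose in all 3 genotypes, and its levels at low Pi set the genotypes further apart. SQD2 in phr1 phl1 stood at 72.6 CPM in its lowest library, 82.4 at the median and 185 in its highest at low Pi, against 36.6, 40.0 and 48.2 CPM at high Pi. SQD2 in phr1 stood at 93.7 CPM in its lowest library, 152 at the median and 258 in its highest at low Pi, against 27.9, 33.3 and 39.2 CPM at high Pi. SQD2 in Col-0 stood at 142 CPM in its lowest library, 409 at the median and 1628 in its highest at low Pi, against 27.1, 36.3 and 48.6 CPM at high Pi. No low-Pi library overlapped the high-Pi libraries of its genotype, and the highest Col-0 value, from library 2 of experiment B, stood far above the other 9. Its log2 fold change was 1.28 ± 0.26 in phr1 phl1 (adjusted p = 0.000213), 2.26 ± 0.21 in phr1 (adjusted p = 9.13e-16) and 3.64 ± 0.21 in Col-0 (adjusted p = 6.22e-27).

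UGP3, which supplies UDP-glucose to the plastid, rose in phr1 and Col-0. UGP3 in phr1 phl1 stood at 67.6 CPM in its lowest library, 92.7 at the median and 158 in its highest at low Pi, against 65.6, 77.5 and 96.1 CPM at high Pi. UGP3 in phr1 stood at 111 CPM in its lowest library, 133 at the median and 202 in its highest at low Pi, against 49.9, 60.3 and 78.4 CPM at high Pi. UGP3 in Col-0 stood at 94.1 CPM in its lowest library, 145 at the median and 403 in its highest at low Pi, against 53.7, 66.6 and 87.4 CPM at high Pi. The groups overlapped in phr1 phl1 and stayed apart in phr1 and Col-0. In phr1 phl1 the log2 fold change of 0.32 ± 0.17 did not pass the test (adjusted p = 0.188). It was 1.20 ± 0.13 in phr1 (adjusted p = 1.11e-11) and 1.24 ± 0.13 in Col-0 (adjusted p = 9.17e-13).

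The 3 monogalactosyl lipid synthases did not move together: MGD2 and MGD3 rose in every genotype, and MGD1 did not. MGD3 had the largest log2 fold change of the 8 genes in all 3 genotypes. MGD3 in phr1 phl1 stood at 7.97 CPM in its lowest library, 9.94 at the median and 28.3 in its highest at low Pi, against 1.32, 2.85 and 4.12 CPM at high Pi. MGD3 in phr1 stood at 11.9 CPM in its lowest library, 29.6 at the median and 77.5 in its highest at low Pi, against 0.307, 0.867 and 1.88 CPM at high Pi. MGD3 in Col-0 stood at 15.7 CPM in its lowest library, 174 at the median and 452 in its highest at low Pi, against 0.334, 1.03 and 4.76 CPM at high Pi. Low-Pi and high-Pi libraries did not overlap in any genotype, and the Col-0 libraries at low Pi spread over the widest range. The fitted log2 fold change was 2.23 ± 0.59 in phr1 phl1 (adjusted p = 0.00384), 5.08 ± 0.48 in phr1 (adjusted p = 5.15e-15) and 6.49 ± 0.43 in Col-0 (adjusted p = 9.75e-24). In phr1 phl1 the adjusted p was 0.0512 without experiment C and 0.0784 without D, at log2 fold changes of 2.39 and 2.30. Single experiments of Col-0 gave 7.01 in A, 7.22 in B, 5.71 in C, 6.04 in D and 4.15 in E. Experiment E had the smallest Col-0 difference for 6 of the 7 genes that rose, all but UGP3.

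MGD2, the other outer envelope synthase, had the next largest fitted fold, in Col-0 level with SQD2. MGD2 in phr1 phl1 stood at 30.4 CPM in its lowest library, 43.2 at the median and 55.7 in its highest at low Pi, against 8.65, 9.90 and 11.3 CPM at high Pi. MGD2 in phr1 stood at 38.6 CPM in its lowest library, 53.4 at the median and 109 in its highest at low Pi, against 3.33, 5.26 and 7.88 CPM at high Pi. MGD2 in Col-0 stood at 24.3 CPM in its lowest library, 68.9 at the median and 186 in its highest at low Pi, against 3.06, 6.59 and 7.29 CPM at high Pi. Every low-Pi library lay above every high-Pi library of its genotype. At high Pi the phr1 phl1 libraries lay above those of Col-0, as for 0.0317% of all genes, but edgeR did not call MGD2 there. They also lay above those of phr1, and that difference was not tested. Low over high Pi, the log2 fold change was 2.08 ± 0.29 in phr1 phl1 (adjusted p = 2.03e-07), 3.51 ± 0.24 in phr1 (adjusted p = 4.64e-23) and 3.65 ± 0.23 in Col-0 (adjusted p = 7.58e-25).

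MGD1, the inner envelope synthase, was the member that fell, in phr1 phl1. MGD1 in phr1 phl1 stood at 60.1 CPM in its lowest library, 92.9 at the median and 163 in its highest at low Pi, against 99.8, 148 and 252 CPM at high Pi. MGD1 in phr1 stood at 67.9 CPM in its lowest library, 107 at the median and 143 in its highest at low Pi, against 94.1, 108 and 201 CPM at high Pi. MGD1 in Col-0 stood at 33.2 CPM in its lowest library, 97.9 at the median and 135 in its highest at low Pi, against 98.1, 109.9 and 206 CPM at high Pi. The groups overlapped in every genotype. Its log2 fold change was -0.66 ± 0.20 in phr1 phl1 (adjusted p = 0.0139), and the call was lost without experiment C (adjusted p = 0.191) and without D (adjusted p = 0.0646). In phr1 it was -0.094 ± 0.15 (adjusted p = 0.717). In Col-0 it was -0.34 ± 0.15 (adjusted p = 0.0634), and it passed the test without experiment B, at -0.47 (adjusted p = 0.0308), and by limma-voom, at -0.40 (adjusted p = 0.0266). With experiment and replicate number as a block it was -0.34 (adjusted p = 0.0446). Experiment D gave the largest Col-0 difference of MGD1, -1.25, and experiment B gave 0.027. The lowest Col-0 value of MGD1 came from library 2 of experiment D, the one low in photosynthesis transcripts, and without the 4 libraries that stood apart the Col-0 fold was -0.26 (adjusted p = 0.1004). The test of a difference between genotypes in the Pi response did not pass for MGD1, at -0.32 ± 0.25 for phr1 phl1 and 0.24 ± 0.22 for phr1 against Col-0 (adjusted p = 0.404 and 0.566).

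DGD1, the main digalactosyl lipid synthase, rose in all 3 genotypes, with overlapping groups throughout. DGD1 in phr1 phl1 stood at 55.0 CPM in its lowest library, 71.8 at the median and 123 in its highest at low Pi, against 24.5, 38.5 and 59.6 CPM at high Pi. DGD1 in phr1 stood at 42.9 CPM in its lowest library, 94.0 at the median and 129 in its highest at low Pi, against 18.8, 45.3 and 79.4 CPM at high Pi. DGD1 in Col-0 stood at 33.6 CPM in its lowest library, 82.9 at the median and 149 in its highest at low Pi, against 17.3, 44.5 and 64.7 CPM at high Pi. The ranges of low and high Pi overlapped in each genotype, although every experiment alone had the higher mean at low Pi. The fitted log2 fold change was 1.01 ± 0.15 in phr1 phl1 (adjusted p = 7.46e-07), 1.13 ± 0.11 in phr1 (adjusted p = 5.29e-14) and 0.89 ± 0.11 in Col-0 (adjusted p = 1.60e-10).

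DGD2, the smaller partner of DGD1 in this step, rose in all 3 genotypes as well. DGD2 in phr1 phl1 stood at 11.7 CPM in its lowest library, 18.2 at the median and 22.3 in its highest at low Pi, against 5.81, 10.6 and 15.3 CPM at high Pi. DGD2 in phr1 stood at 15.4 CPM in its lowest library, 20.5 at the median and 24.0 in its highest at low Pi, against 7.13, 12.5 and 18.7 CPM at high Pi. DGD2 in Col-0 stood at 17.9 CPM in its lowest library, 28.3 at the median and 71.7 in its highest at low Pi, against 10.3, 12.8 and 17.1 CPM at high Pi. Only in Col-0 did the low-Pi libraries of DGD2 all lie above the high-Pi ones. Low over high Pi, the log2 fold change was 0.68 ± 0.19 in phr1 phl1 (adjusted p = 0.00614), 0.66 ± 0.14 in phr1 (adjusted p = 0.000152) and 1.27 ± 0.14 in Col-0 (adjusted p = 3.65e-13). In phr1 phl1 the call was lost without experiment D, at 0.48 (adjusted p = 0.231).

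**Figure D2:**
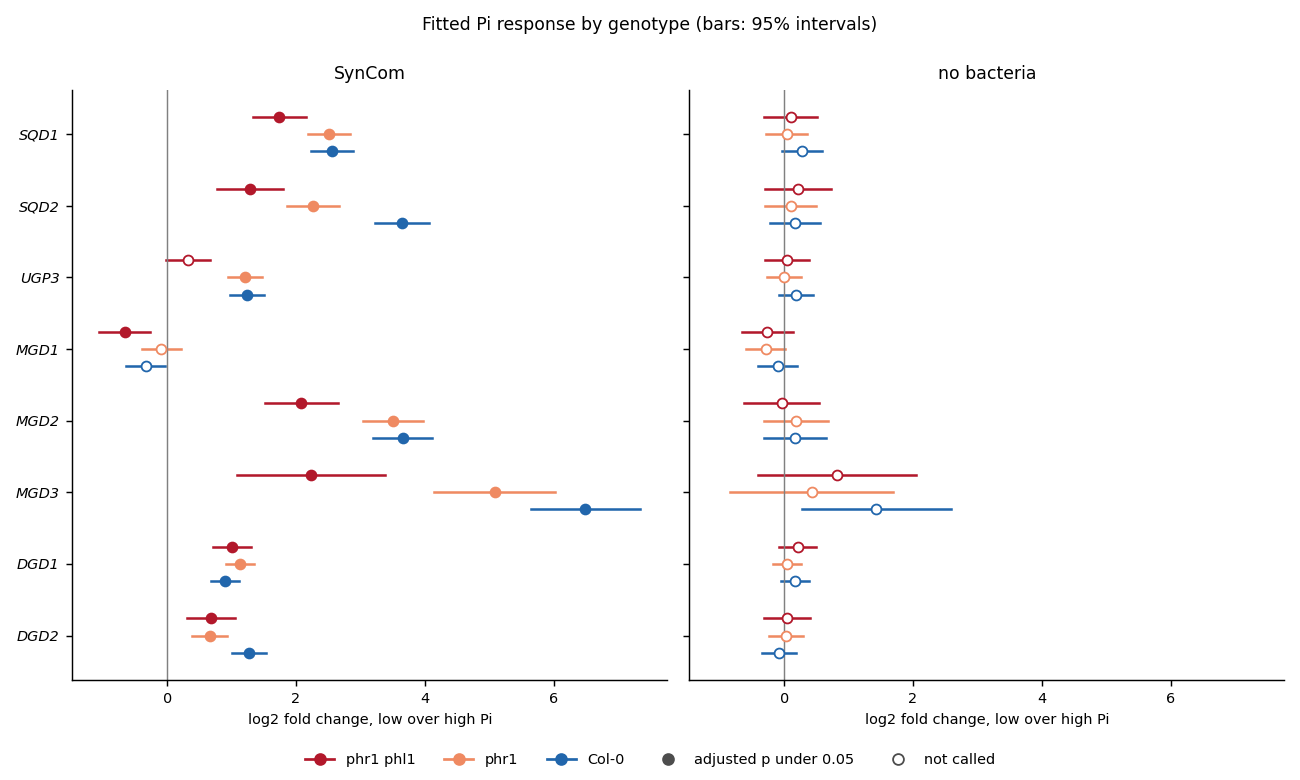
Log2 fold change, low over high Pi, of each gene in phr1 phl1, phr1 and Col-0, with SynCom and without bacteria. Points are fitted values, filled where called, and bars their 95% intervals. With SynCom the points run up to 6.49 for MGD3 in Col-0, and without bacteria no point passed the adjusted test.

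The same Pi contrast without bacteria gave no call among the 8 genes in any genotype by edgeR. Over all genes the percentages called were 0% in phr1 phl1, 0% in phr1 and 0.0106% in Col-0, which is 2 genes. At an unadjusted p under 0.05 the counts were 0, 0 and 1 of the 8 genes, and 1062, 981 and 319 of all genes. DESeq2 called 4, 80 and 3 genes and limma-voom 0, 0 and 1, with none of the 8 among them. The 1 gene past the unadjusted threshold was MGD3 in Col-0, at a log2 fold change of 1.43 ± 0.59 (unadjusted p = 0.0175). Of its 10 low-Pi libraries, 1 from experiment B had 10.3 CPM, and the next highest had 3.10 CPM. The remaining log2 fold changes and their intervals appear in the plot of fitted Pi responses.

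Without bacteria the levels of the 8 genes were as follows. UGP3 had medians of 65.4 CPM in phr1 phl1, 60.9 in phr1 and 63.4 in Col-0 at low Pi, against 66.2, 64.1 and 57.6 CPM at high Pi, with single libraries from 45.5 to 91.8 CPM. SQD1 had medians of 50.3 CPM in phr1 phl1, 38.0 in phr1 and 45.7 in Col-0 at low Pi, against 50.5, 36.5 and 36.7 CPM at high Pi, with single libraries from 26.6 to 66.7 CPM. SQD2 had medians of 34.2 CPM in phr1 phl1, 40.8 in phr1 and 40.6 in Col-0 at low Pi, against 42.6, 36.3 and 36.9 CPM at high Pi, with single libraries from 26.6 to 117 CPM. For none of these 3 did the fold between low and high Pi pass the test in any genotype. MGD1 had medians of 105 CPM in phr1 phl1, 96.9 in phr1 and 105 in Col-0 at low Pi, against 119, 111 and 112 CPM at high Pi, with single libraries from 69.7 to 211 CPM. MGD2 had medians of 13.2 CPM in phr1 phl1, 5.42 in phr1 and 5.22 in Col-0 at low Pi, against 13.4, 4.73 and 5.35 CPM at high Pi, with single libraries from 1.79 to 26.1 CPM. MGD3 had medians of 4.95 CPM in phr1 phl1, 1.42 in phr1 and 1.09 in Col-0 at low Pi, against 2.80, 0.794 and 0.911 CPM at high Pi, with single libraries from 0 to 14.1 CPM. MGD3 had 0 counts in 1 Col-0 library at high Pi, from experiment A, which allows up to 0.383 CPM, and the medians of both outer envelope synthases were highest in phr1 phl1. DGD1 had medians of 37.5 CPM in phr1 phl1, 41.9 in phr1 and 54.3 in Col-0 at low Pi, against 31.5, 44.7 and 43.4 CPM at high Pi, with single libraries from 23.5 to 78.3 CPM. DGD2 had medians of 13.6 CPM in phr1 phl1, 14.4 in phr1 and 14.2 in Col-0 at low Pi, against 12.0, 14.4 and 15.1 CPM at high Pi, with single libraries from 9.27 to 21.6 CPM.

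Set against seedlings without bacteria at low Pi, those with SynCom had higher levels of 6 of the 8 genes in phr1 phl1 and of 7 in phr1 and in Col-0. At high Pi none of the 8 was called. At low Pi 13.6% of all genes were called in phr1 phl1, 26.2% in phr1 and 43.2% in Col-0, and 8.06%, 14.4% and 23.8% were higher. These contrasts use the same low-Pi libraries with SynCom as the Pi contrasts, so the calls are not independent of those above. At high Pi 2.25%, 4.67% and 3.67% of all genes were called, and 0 of the 8 genes passed an unadjusted p under 0.05, where 3012, 2835 and 2592 of all genes did. DESeq2 and limma-voom also called 0 of the 8 at high Pi. At low Pi SQD1 had a log2 fold change, SynCom over no bacteria, of 1.79 ± 0.21 in phr1 phl1, 2.61 ± 0.16 in phr1 and 2.45 ± 0.16 in Col-0. SQD2 had 0.997 ± 0.26, 1.9996 ± 0.20 and 3.37 ± 0.21 in the same order of genotypes. MGD2 had 1.795 ± 0.29, 3.45 ± 0.23 and 3.57 ± 0.23. These were calls in every genotype, and MGD3, with 1.49 ± 0.54, 4.69 ± 0.44 and 6.07 ± 0.40, had the largest fold in phr1 and Col-0. UGP3 rose by 0.58 ± 0.18, 1.22 ± 0.13 and 1.295 ± 0.13, and DGD1 by 0.85 ± 0.15, 1.05 ± 0.11 and 0.69 ± 0.11. DGD2 rose by 0.46 ± 0.13 in phr1 and 1.17 ± 0.13 in Col-0, and its 0.28 ± 0.18 in phr1 phl1 did not pass the test. MGD1 did not pass in any genotype, with -0.11 ± 0.20, 0.041 ± 0.15 and -0.13 ± 0.15. In phr1 phl1 MGD3 passed narrowly (adjusted p = 0.0498) and was not called by DESeq2 (adjusted p = 0.115), by limma-voom (adjusted p = 0.0596) or with the replicate block (adjusted p = 0.0751). SQD2 and UGP3 in phr1 phl1 lost their calls without experiment C (adjusted p = 0.119 and 0.121) and without D (adjusted p = 0.246 and 0.156).

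Whether the Pi response differed with and without SynCom was tested as an interaction, the log2 fold change with SynCom minus that without bacteria. It was called for 7 of the 8 genes in Col-0 and in phr1, all but MGD1, and for 3 in phr1 phl1, all of them positive. Over all genes 4.19% were called in phr1 phl1, 5.52% in phr1 and 29.2% in Col-0, and 2.38%, 3.51% and 15.4% were positive. MGD3 had an interaction of 4.66 ± 0.89 in phr1 and 5.06 ± 0.88 in Col-0, and 1.41 ± 0.88 in phr1 phl1, which did not pass (adjusted p = 0.362). The 3 calls in phr1 phl1 were SQD1 at 1.64 ± 0.29, MGD2 at 2.13 ± 0.41 and DGD1 at 0.80 ± 0.21. Without experiment C their values were 1.55, 1.91 and 0.92, with adjusted p of 0.182, 0.183 and 0.194. Without experiment D they were 1.61, 1.96 and 0.58, with adjusted p of 0.108, 0.177 and 0.389. Of all genes, 1 was called without C and 5 without D, against 793 with all experiments. Leaving out the 4 libraries that stood apart added SQD2 in phr1 phl1, at 1.25 (adjusted p = 0.0429), against 1.07 ± 0.37 with them (adjusted p = 0.0731).

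The mutants were then set against Col-0 at low Pi with SynCom. In phr1 phl1, 6 of the 8 genes were lower, where 36.0% of all genes were called and 18.8% were lower, and in phr1, 3 were lower, where 25.1% were called and 13.4% were lower. MGD3 and SQD2 had the largest differences in both mutants. MGD3 had 7.97, 9.94 and 28.3 CPM (lowest, median, highest) in phr1 phl1 and 11.9, 29.6 and 77.5 CPM in phr1, against 15.7, 174 and 452 CPM in Col-0. Both mutants overlapped Col-0, because the 2 Col-0 libraries of experiment E had 15.7 and 22.1 CPM. The log2 fold change of MGD3 over Col-0 was -3.58 ± 0.45 in phr1 phl1 (adjusted p = 9.10e-10) and -2.24 ± 0.33 in phr1 (adjusted p = 1.59e-07). For SQD2 it was -1.98 ± 0.25 in phr1 phl1 (adjusted p = 6.10e-10) and -1.46 ± 0.19 in phr1 (adjusted p = 1.19e-08). DGD2 was the third gene lower in both, at -0.73 ± 0.16 in phr1 phl1 (adjusted p = 0.000243) and -0.69 ± 0.13 in phr1 (adjusted p = 4.41e-05). In phr1 phl1 the test was also passed by SQD1 at -0.47 ± 0.19 (adjusted p = 0.0370), UGP3 at -0.66 ± 0.16 (adjusted p = 0.000654) and MGD2 at -0.83 ± 0.24 (adjusted p = 0.00468). MGD1, at -0.058 ± 0.18 in phr1 phl1 and 0.13 ± 0.15 in phr1, did not pass the test. DGD1, at 0.20 ± 0.13 in phr1 phl1 and 0.25 ± 0.11 in phr1, did not pass it either.

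These comparisons depended on the experiment, and phr1 phl1 was grown in C, D and E while Col-0 was grown in all 5. As differences of mean log2 CPM, MGD3 in phr1 phl1 differed from Col-0 by -3.50 in C, -4.47 in D and -0.18 in E. MGD3 in phr1 differed by -3.01 in A, -3.39 in B, -1.39 in C, -2.88 in D and 1.02 in E. In experiment E the means of MGD3 were 18.9 CPM in phr1 phl1 and 48.1 in phr1, against 18.9 CPM in Col-0, so the direction in phr1 was turned there. SQD2 in phr1 differed from Col-0 by -1.39 in A, -2.098 in B, -0.64 in C and -2.07 in D on the log2 scale, and stood at 0.17 in E. In phr1 phl1 SQD2 differed by -1.53 in C, -2.15 in D and -0.36 in E. Experiment E gave the smallest difference or the opposite sign for both genes.

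A fit of experiments C, D and E alone, which gives all genotypes the same experiments, left 4 calls in phr1 phl1, of which 3 were lower. MGD3 stood at -3.11 (adjusted p = 1.78e-07), SQD2 at -1.53 (adjusted p = 1.73e-06) and DGD2 at -0.55 (adjusted p = 0.00899). DGD1 was then called higher, at 0.42 (adjusted p = 0.0183), and its difference was positive in each of the 3 experiments. SQD1 turned to 0.058 (adjusted p = 0.828), UGP3 stood at -0.33 (adjusted p = 0.0618) and MGD2 at -0.38 (adjusted p = 0.222). In phr1 the fit of C, D and E left MGD3 at -1.45 (adjusted p = 0.0181) and SQD2 at -1.03 (adjusted p = 0.00402), while DGD2 was at -0.39 (adjusted p = 0.126). For phr1 that fit called 966 of all genes, against 4752 with all experiments. The Col-0 library 2 of experiment B also carried weight. Without it SQD1 in phr1 phl1 was at -0.23 (adjusted p = 0.246), and the other 5 genes stayed called. In phr1 DGD1 then passed as higher, at 0.35 (adjusted p = 0.0122). Without experiment E, MGD2 in phr1 was called lower than Col-0, at -0.63 (adjusted p = 0.00487). Without experiment D, SQD1, UGP3 and MGD2 in phr1 phl1 lost their calls, with adjusted p of 0.0603, 0.0550 and 0.0560.

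**Figure D3:**
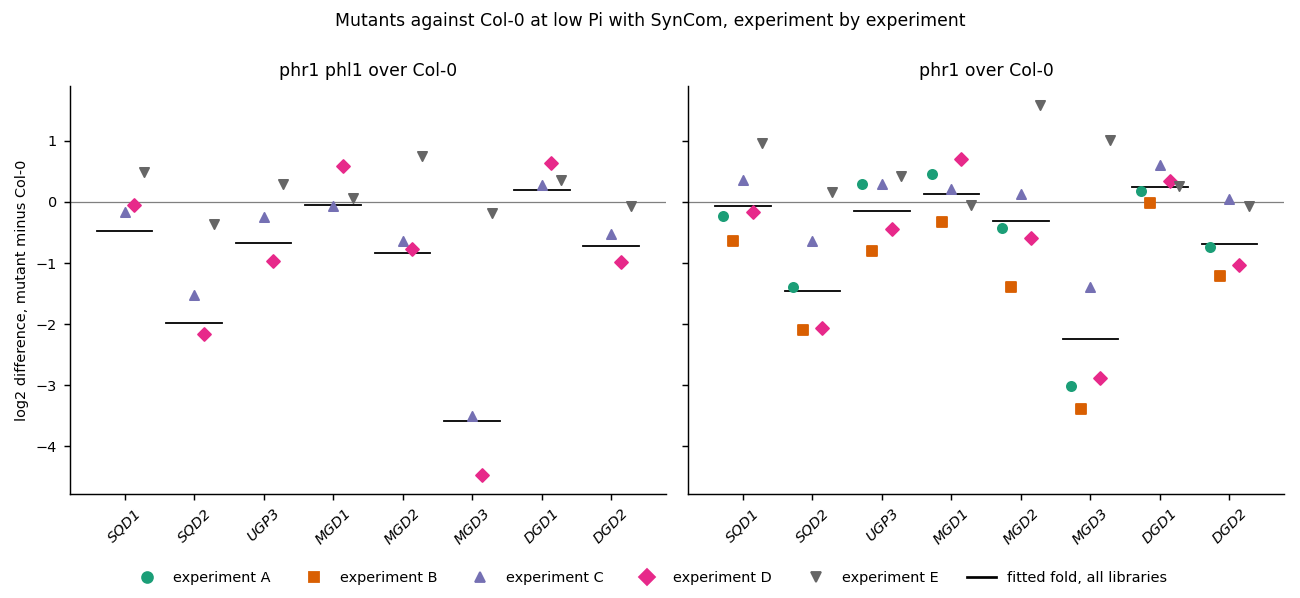
Difference of mean log2 CPM, mutant minus Col-0, at low Pi with SynCom for each gene, for phr1 phl1 and for phr1. Each experiment has 1 point (2 libraries of each genotype), and the bar is the fitted fold over all experiments. MGD3 in phr1 phl1 lies between -4.47 in experiment D and -0.18 in E, and in phr1 between -3.39 in B and 1.02 in E.

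Between the mutants, phr1 phl1 against phr1 at low Pi with SynCom, edgeR called 0 of the 8 genes and 2.63% of all genes. At an unadjusted p under 0.05 there were 5 of the 8, where 17.1% of all genes passed. DESeq2 and limma-voom each called 1 of the 8, UGP3. MGD3 was at -1.34 ± 0.41 (adjusted p = 0.0574) and lower in phr1 phl1 in each of C, D and E, at -2.11, -1.59 and -1.20. In C, D and E alone it was called, at -1.66 (adjusted p = 0.0125). UGP3 was at -0.52 ± 0.16 (adjusted p = 0.0545). Without library 2 of experiment B of Col-0, which enters only through the shared spread and the experiment effects, MGD3 and UGP3 were both called (adjusted p = 0.0396 and 0.00841).

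In the other 3 conditions no gene of the 8 was called between a mutant and Col-0 by edgeR, and few of all genes were. For phr1 phl1 0.106% of all genes were called at high Pi with SynCom, 0.0634% at low Pi without bacteria and 0.0793% at high Pi without bacteria, and for phr1 0.0951%, 0.0581% and 0.0581%. In phr1 the count at an unadjusted p under 0.05 was 0 in each condition. In phr1 phl1 it was 1 at high Pi with SynCom, 1 at low Pi without bacteria and 3 at high Pi without bacteria, where 8.40%, 3.71% and 13.4% of all genes passed that threshold. Of the 8 genes, DESeq2 called 1 in 1 of these 6 comparisons, where it called 161 of all genes, and limma-voom called none. That gene was MGD2 at high Pi without bacteria, where it had 7.19, 13.4 and 18.4 CPM (lowest, median, highest) in phr1 phl1 and 1.79, 5.35 and 7.78 CPM in Col-0. The ranges overlapped, and the log2 fold change was 1.16 ± 0.27 (adjusted p = 0.0544), positive in each of C, D and E. It passed with DESeq2 (adjusted p = 0.0160), with the replicate block (adjusted p = 0.0407), without experiment B (adjusted p = 0.0312) and without E (adjusted p = 0.0349). In C, D and E alone it did not pass, at 1.06 (adjusted p = 0.279). At high Pi with SynCom the phr1 phl1 libraries of MGD2 all lay above those of Col-0, which 0.0317% of all genes did, at a log2 fold change of 0.74 ± 0.29 (adjusted p = 0.427). At low Pi without bacteria it was 0.95 ± 0.28 (adjusted p = 0.552).

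Whether the Pi response itself differed between a mutant and Col-0 with SynCom was tested as the log2 fold change in the mutant minus that in Col-0. For phr1 phl1 it was called and negative for 5 of the 8 genes, where 16.3% of all genes were called and 8.48% were negative. For phr1 it was called for 1, where 2.67% were called and 1.70% were negative. MGD3 was at -4.27 ± 0.82 in phr1 phl1 (adjusted p = 0.000140) and -1.41 ± 0.80 in phr1 (adjusted p = 0.306). SQD2 was at -2.36 ± 0.33 in phr1 phl1 (adjusted p = 3.40e-07) and -1.38 ± 0.28 in phr1 (adjusted p = 0.00200). The other calls in phr1 phl1 were MGD2 at -1.57 ± 0.37 (adjusted p = 0.00181), UGP3 at -0.91 ± 0.22 (adjusted p = 0.00212) and SQD1 at -0.82 ± 0.26 (adjusted p = 0.0207). In experiments C, D and E alone 2 calls were left in phr1 phl1, SQD2 at -1.85 (adjusted p = 0.000559) and MGD3 at -3.31 (adjusted p = 0.00804). Of all genes, 838 were called in that fit, against 3083 with all experiments. MGD2 was then at -0.93 (adjusted p = 0.127), UGP3 at -0.51 (adjusted p = 0.102) and SQD1 at -0.13 (adjusted p = 0.796). SQD2 in phr1 was not called in C, D and E alone, at -1.04 (adjusted p = 0.487), or without experiment D, at -1.13 (adjusted p = 0.108). Those fits called 2 and 65 of all genes for phr1, against 505 with all experiments.

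Within a library the balance between genes for the same lipid was followed as a log2 ratio of CPM per kilobase of coding sequence. The ratio of MGD2 plus MGD3 over MGD1, outer over inner envelope synthases, averaged -0.57 ± 0.80 at low Pi, against -3.30 ± 0.55 at high Pi, in phr1 phl1 with SynCom (SD, n = 6 each). In phr1 it averaged -0.056 ± 0.69 against -3.95 ± 0.52 (n = 10 each). In Col-0 it averaged 1.20 ± 1.66 against -3.78 ± 0.55 (n = 10 each). In all 3 genotypes every low-Pi library lay above every high-Pi library, and only in Col-0 did the mean at low Pi exceed 0, the point where both sides are equal. The differences were 2.73 in phr1 phl1 (exact permutation test within experiments, two-sided, adjusted over 18 ratio tests, p = 0.0417), 3.89 in phr1 (adjusted permutation p = 0.00154) and 4.98 in Col-0 (adjusted permutation p = 0.00154). The smallest unadjusted p these permutations can give is 0.00926 in phr1 phl1 and 0.000257 in phr1 and Col-0, and all 3 tests gave it.

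SQD2 over SQD1 in Col-0 averaged 0.58 ± 0.45 at low Pi, against -0.37 ± 0.43 at high Pi, a difference of 0.96 (adjusted permutation p = 0.00154). In phr1 phl1 the difference was -0.49 (adjusted permutation p = 0.0833) and in phr1 -0.24 (adjusted permutation p = 0.0794). The sulfolipid ratio thus passed the test in Col-0 and not in the mutants, where its sign was negative, and the difference between genotypes was not tested. DGD2 over DGD1 differed by -0.29 in phr1 phl1, -0.44 in phr1 and 0.31 in Col-0 (adjusted permutation p = 0.273, 0.0517 and 0.0895). Without bacteria none of the 9 ratio tests fell below 0.05, and the nearest was MGD2 plus MGD3 over MGD1 in phr1, at 0.46 (adjusted permutation p = 0.05).

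**Figure D4:**
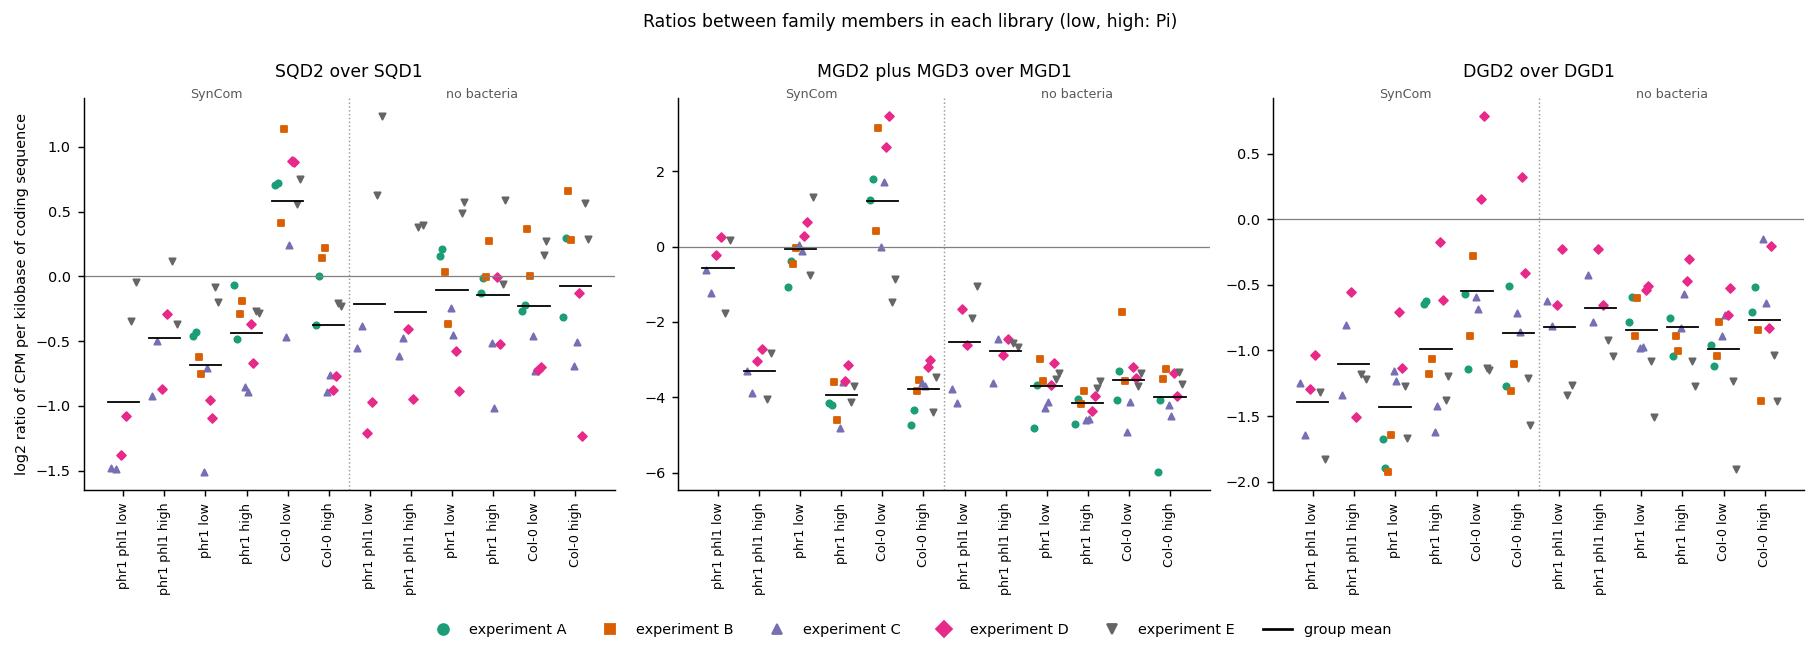
Log2 ratio of CPM per kilobase of coding sequence between genes for the same lipid, 1 point per library coloured by experiment, with the group mean as a bar. Groups are low and high Pi in each genotype, with SynCom and without bacteria. The ratio of MGD2 plus MGD3 over MGD1 in Col-0 with SynCom averages 1.20 at low Pi and -3.78 at high Pi.

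Levels of different genes were compared as CPM per kilobase of coding sequence, mean ± SD over libraries. In Col-0 with SynCom under low Pi SQD2 led, at 305 ± 281, followed by SQD1 at 183 ± 117 and MGD3 at 117 ± 92.1. UGP3 at 60.6 ± 33.9, MGD1 at 58.5 ± 19.7 and MGD2 at 51.0 ± 33.0 came next, then DGD1 at 33.3 ± 14.1 and DGD2 at 22.6 ± 11.0. SQD2 exceeded SQD1 in 9 of 10 libraries, whereas UGP3 exceeded MGD1 in 4 and MGD1 exceeded MGD2 in 5, so the order of those 3 is within their spread. In phr1 SQD1 led at 170.4 ± 52.6, SQD2 followed at 107 ± 35.3, and MGD3 was next to last at 23.3 ± 13.3. In phr1 phl1 SQD1 led at 128 ± 31.6 and MGD3 was last at 9.11 ± 5.50, while SQD2 and MGD1 shared the next places at 67.2 ± 28.5 and 60.4 ± 21.8, with SQD2 higher in 3 of 6 libraries. At high Pi with SynCom MGD1 led in every genotype, at 95.9 ± 37.8 in phr1 phl1, 69.1 ± 18.2 in phr1 and 74.2 ± 20.9 in Col-0, above the next gene in all libraries. MGD3 was last there, at 2.01 ± 0.703, 0.691 ± 0.423 and 1.22 ± 1.16, below MGD2 in all libraries. Between them the order was SQD1, UGP3, SQD2, DGD1, DGD2 and MGD2 in each genotype, and UGP3 exceeded SQD2 in 5 of 6, 7 of 10 and 7 of 10 libraries.

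The genes around these enzymes were followed in 5 lists, given for low against high Pi with SynCom and chosen with earlier results of these data known. Of all genes tested, 19.2% were called in phr1 phl1, 23.8% in phr1 and 49.4% in Col-0, as above. The list of phospholipid breakdown includes phospholipases and glycerophosphodiester phosphodiesterases, so not all of its genes release diacylglycerol. It had 3 of 10 tested genes higher in phr1 phl1, 7 in phr1 and 7 in Col-0, with 2 lower in Col-0. Its median log2 fold change was -0.026, 1.99 and 2.95. NPC4, a phospholipase C, was at 0.02 ± 0.68 in phr1 phl1 (adjusted p = 0.992) and rose by 2.38 ± 0.38 in phr1 and 5.70 ± 0.35 in Col-0. PLDZETA2, a phospholipase D, rose by 2.50 ± 0.41 in phr1 phl1, 4.07 ± 0.31 in phr1 and 5.22 ± 0.31 in Col-0. GDPD1, a glycerophosphodiester phosphodiesterase, rose by 2.65 ± 0.26, 3.50 ± 0.21 and 3.43 ± 0.20. These 3 had the smallest adjusted p of the list in Col-0, and NPC4 was the 1 of them without a call in phr1 phl1. PLDZETA2 and GDPD1 overlap a gene on the other strand, as do UGE1 and TGD4 below, and their reads cannot be told apart from those of the partner.

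The supply of UDP-sugars, precursors of the galactose and sulfoquinovose head groups, had 1 gene higher and 1 lower of 7 tested in phr1 phl1, 2 and 1 in phr1, and 4 and 2 in Col-0. These counts stand beside 19.2%, 23.8% and 49.4% of all genes called, and with 7 genes the list is not set apart from all genes in the mutants. The median log2 fold change of the list was -0.14 in phr1 phl1, 0.24 in phr1 and 0.49 in Col-0. UGP1, a cytosolic UDP-glucose pyrophosphorylase, was at 0.25 ± 0.16 in phr1 phl1, which did not pass the test (adjusted p = 0.304), and rose by 0.61 ± 0.12 in phr1 and 1.39 ± 0.12 in Col-0. UGE1, a UDP-glucose epimerase, moved the other way, at -0.61 ± 0.21, -0.94 ± 0.16 and -1.400 ± 0.17, past the test in each genotype. UGE4, another epimerase, was at -0.43 ± 0.17 in phr1 phl1 (adjusted p = 0.0711) and rose by 0.34 ± 0.12 in phr1 and 0.65 ± 0.12 in Col-0.

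Plastid precursor supply, acyltransferases, phosphatases and the TGD importer of lipid, had 2 of 10 genes lower in phr1 phl1, 3 in phr1 and 5 in Col-0, with 1, 0 and 1 higher, which is near the shares of all genes called. Its median log2 fold change was -0.20 in phr1 phl1, -0.14 in phr1 and -0.23 in Col-0. ATS1, the plastid glycerol-3-phosphate acyltransferase, fell in each genotype, at -0.71 ± 0.18, -0.55 ± 0.13 and -0.80 ± 0.13. ATS2, the next acyltransferase of the pathway, was at -0.24 ± 0.10 in phr1 phl1 (adjusted p = 0.0883) and fell in phr1, at -0.21 ± 0.079, and Col-0, at -0.51 ± 0.08. TGD4 was at 0.057 ± 0.11 in phr1 phl1 (adjusted p = 0.766) and fell in phr1, at -0.31 ± 0.08, and Col-0, at -0.45 ± 0.08. Desaturation and remodelling of glycolipids had 1, 2 and 5 of 6 genes lower and 0, 1 and 0 higher. FAD5, the desaturase that acts on the palmitic acid of monogalactosyl lipid, was at -0.44 ± 0.18 in phr1 phl1 (adjusted p = 0.0815) and fell in phr1, at -0.58 ± 0.14, and in Col-0, at -1.16 ± 0.15. In Col-0 FAD6 and FAD7, further plastid desaturases, fell as well, at -0.77 ± 0.12 and -0.80 ± 0.16. The median of the desaturation list was -0.37 in phr1 phl1, -0.20 in phr1 and -0.63 in Col-0. The medians of both plastid lists were thus below 0, as were those of the photosynthesis markers. Of the 10 markers, 5 were lower in phr1 phl1, 7 in phr1 and 10 in Col-0. Of all genes, 19.2%, 23.8% and 49.4% were called in either direction. Without the 4 libraries that stood apart, 8 markers were lower in phr1 phl1, and the counts in phr1 and Col-0 were the same. The part of the marker shift in both plastid lists was not tested.

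Phospholipid synthesis had 1 of 13 tested genes higher and 1 lower in phr1 phl1, 2 and 1 in phr1, and 5 and 2 in Col-0, close to the shares of all genes called. CCT1, which activates choline for phosphatidylcholine, rose by 0.55 ± 0.11 in phr1 phl1, 0.59 ± 0.085 in phr1 and 0.76 ± 0.085 in Col-0. AAPT2, which joins the activated head group to diacylglycerol, was at 0.25 ± 0.13 in phr1 phl1 (adjusted p = 0.165) and rose by 0.45 ± 0.098 in phr1 and 0.71 ± 0.098 in Col-0. CDS5, a plastid CDP-diacylglycerol synthase, was at -0.36 ± 0.15 in phr1 phl1 (adjusted p = 0.0712) and fell in phr1, at -0.30 ± 0.11, and Col-0, at -0.43 ± 0.11. Without the 4 libraries that stood apart, the desaturation list had 3 genes lower in phr1 phl1, phospholipid synthesis had 1 higher and 2 lower in phr1 phl1, 3 and 2 in phr1 and 4 and 3 in Col-0, and the counts of the other 3 lists were the same. Without bacteria no gene of these 5 lists was called in any genotype by edgeR.

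**Figure D5:**
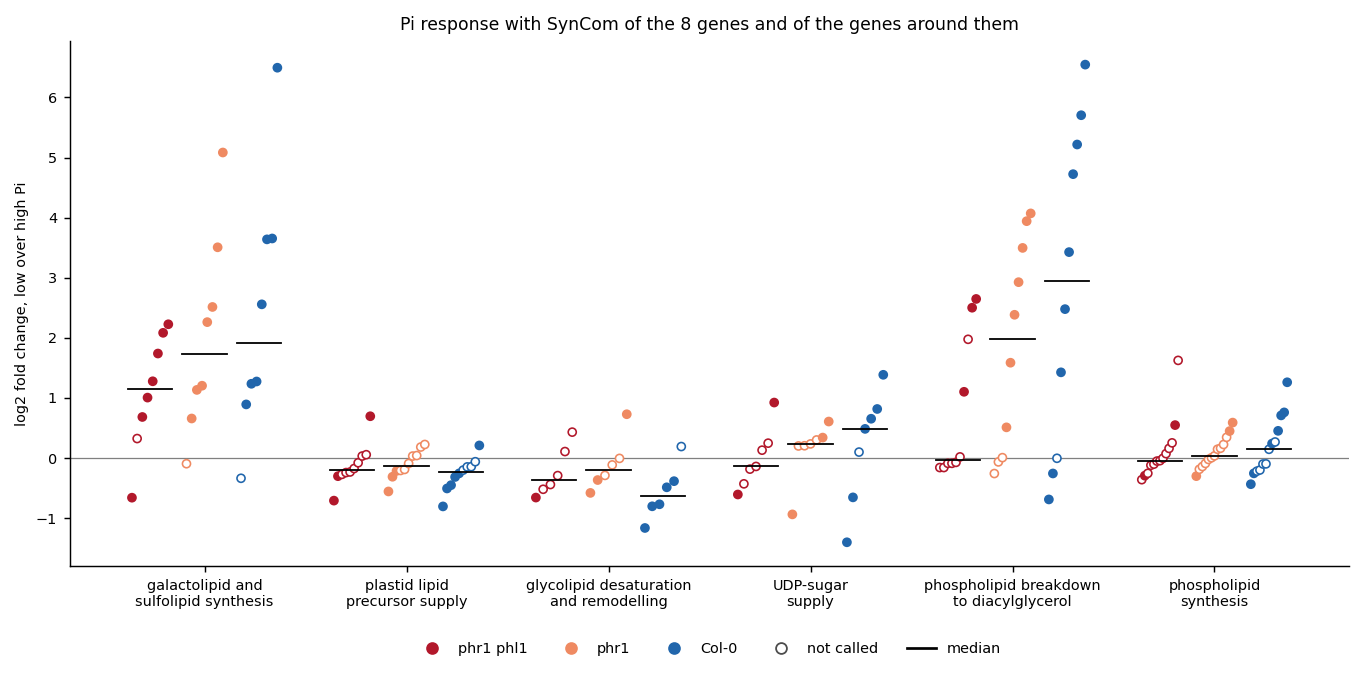
Log2 fold change, low over high Pi with SynCom, of the 8 genes and of each tested gene in 5 lists of neighbouring lipid pathways, 1 point per gene and genotype, filled where called, with the median as a bar. The phospholipid breakdown list in Col-0 has a median of 2.95, and the desaturation list has -0.63.

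Likeness between genes was described by Pearson's r of log2 CPM over all libraries, centred on each experiment. The libraries share genotype, Pi and SynCom as common sources of difference. Among the 8 genes r was 0.95 between SQD1 and MGD2 and 0.95 between SQD2 and MGD3, and it fell to 0.67 between DGD1 and DGD2. MGD1 had a negative r with each of the other 7, between -0.31 with DGD2 and -0.18 with UGP3. Outside the 8, SQD1 was most like SRG3 (AT3G02040, listed here also as GDPD1), at 0.963, and AT4G23000, at 0.948. SQD2 was most like AT5G20790, at 0.947, and PAP12, at 0.945, and MGD3 was most like AT5G20790, at 0.955, and PS2, at 0.950. PS2 encodes a phosphatase and PAP12 a purple acid phosphatase. MGD2 was most like AT1G23110, at 0.957, and SRG3, at 0.952, and UGP3 was most like AT4G23000, at 0.889, and PAP12, at 0.886. DGD1 was most like AT1G72890, at 0.892, and AT2G42690, at 0.891, and DGD2 was most like AT3G03790, at 0.868, and PPC1, at 0.835, which encodes a phosphoenolpyruvate carboxylase. MGD1 was most like TIFY7, at 0.847, and AOS, at 0.809, a repressor of jasmonate responses and the allene oxide synthase of jasmonate synthesis.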

How the data were processed

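Per the labels' protocols, libraries of polyadenylated RNA from whole seedlings were sequenced without strand information. The authors deposited raw counts of reads for each locus, and 0 columns of values were left unused. The submitters' processing notes name the build TAIR10 and the tools HTSeq 0.6.1p1, TopHat2 2.1.1, cutadapt 1.3 and CASAVA 1.8. How each was run is not given in the sources used here. Of the 27206 loci, 1788 had no count in any library. Reads that fall where genes overlap can be counted for neither or for the wrong gene under such counting.

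The members and lists were chosen with earlier results of these data known. The named genes were the 8 members, PHR1 and PHL1, the 2 genes most like each member and, of each list, up to 3 genes with the smallest adjusted p for low against high Pi in Col-0 with SynCom. All 12 groups and the experiments entered 1 model in edgeR 4.0.16 (R 4.3.3), after filterByExpr and TMM scaling. The quasi-likelihood F test was run for 26 contrasts over 18926 genes, with p-values adjusted by Benjamini-Hochberg at 0.05. Each standard error is the absolute log2 fold change divided by the root of its F. The script was tested on counts simulated from the fitted means and spreads, with known changes that were the same in every experiment. That test cannot show how the p-values behave where an effect differs between experiments. CPM are counts over the TMM-scaled library size. Differences of single experiments are differences of mean log2 CPM, taken with a prior count of 2 and with no test. Ratios used CPM per kilobase of coding sequence (RefSeq, TAIR10.1) plus 0.1, compared by exact permutation within experiments, adjusted over 18 tests. Coordinates and sequences are those of RefSeq TAIR10.1, and the counts' build is named TAIR10, so they were joined by locus ID.

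The labels number 2 libraries per group and experiment. The median correlation of their deviations from group means was 0.508 for pairs with the same experiment and number, 0.505 for pairs that share the experiment alone, and -0.29 across experiments, so the experiment pairs libraries and the number adds little. The 420 pairs of libraries within a group differed by at least 1.916 chi-square per degree of freedom, and none was taken as a duplicate. Libraries of a group in 1 experiment share that experiment and were fitted as independent, so p-values are too small where an effect differs between experiments. Alternatives were DESeq2 1.42.0, limma-voom (limma 3.58.1), RLE and upper-quartile scaling, no filter, no experiment term, a replicate block of experiment and number, summed libraries, experiments C, D and E alone and each experiment left out. Fits without 4 libraries (under 1000000 counts or a residual SD over 0.65) and without the Col-0 library 2 of experiment B were added after seeing the data. For ratios a pseudocount of 1 and no strata were tried.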

Additional observations from a re-analysis of the deposited data

Results flagged for a closer look

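In 15 of 96 groups of 6 or 10 libraries, 1 library stood apart from the rest of its group by its gap in CPM. The threshold flags about 1 of 20 groups of independent, normally spread values. Here each group mixes experiments, and the 96 are 8 genes in the same 12 groups. The 15 therefore cannot be read against that rate. Of the 15, 6 came from library 2 of experiment B of Col-0 at low Pi with SynCom. It was the highest of its group for SQD1 (692 CPM, next 302), SQD2 (1628 CPM, next 531), UGP3 (403 CPM, next 179.9), MGD2 (186 CPM, next 85.2), MGD3 (452 CPM, next 231) and DGD2 (71.7 CPM, next 40.6). In this library the genes of the outer envelope and of sulfolipid were high together, and the values without it are given beside the comparisons of the mutants with Col-0.

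Of the others, 3 came from library 1 of experiment B of Col-0 at low Pi without bacteria, which was highest for SQD1 (65.0 CPM, next 50.1), SQD2 (89.6 CPM, next 48.9) and MGD3 (10.3 CPM, next 3.10). Library 2 of experiment E at low Pi with SynCom was highest for MGD3 in phr1 phl1 (28.3 CPM, next 10.9) and, in phr1, for MGD3 (77.5 CPM, next 43.3) and MGD2 (109 CPM, next 75.0). MGD1 was highest in library 1 of experiment C for phr1 at high Pi with SynCom (201 CPM, next 114) and for Col-0 at low Pi without bacteria (181 CPM, next 123). MGD2 was lowest in library 1 of experiment A for phr1 at low Pi without bacteria (2.22 CPM, next 4.82).

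The Pi response of the 8 genes differed between conditions or genotypes in 23 interaction tests, each by edgeR at an adjusted p under 0.05. Over all genes, Pi by SynCom was called for 4.19% in phr1 phl1, 5.52% in phr1 and 29.2% in Col-0. The difference from Col-0 with SynCom was called for 16.3% in phr1 phl1 and 2.67% in phr1. The 3 Pi by SynCom calls in phr1 phl1 were lost with summed libraries and without C or D. The SQD2 call in phr1 was lost in C, D and E alone. The log2 fold change with SynCom exceeded that without bacteria in phr1 phl1 by 1.64 for SQD1, 2.13 for MGD2 and 0.80 for DGD1. In phr1 it did so by 2.48 for SQD1, 2.16 for SQD2, 1.21 for UGP3, 3.32 for MGD2, 4.66 for MGD3, 1.09 for DGD1 and 0.64 for DGD2. In Col-0 the excess was 2.28 for SQD1, 3.48 for SQD2, 1.05 for UGP3, 3.48 for MGD2, 5.06 for MGD3, 0.73 for DGD1 and 1.355 for DGD2. Against Col-0 with SynCom, the response in phr1 phl1 differed by -0.82 for SQD1, -2.36 for SQD2, -0.91 for UGP3, -1.57 for MGD2 and -4.27 for MGD3. In phr1 it differed by -1.38 for SQD2.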

How the results depend on the processing

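Counts of the 8 genes called stayed within 1.5 times of their value in 387 refits and moved further in 29. Counts of all genes called did so in 305 and moved further in 111. Of the refitted folds of the 8 genes, 3222 kept their direction and side of the threshold, 71 lost a call, 34 gained one and 1 turned: SQD1 in phr1 phl1 against Col-0 at low Pi with SynCom, at 0.058 in C, D and E alone. The cause was not tested. Phr1 phl1 against Col-0 at high Pi without bacteria, with 0 genes called, had 1 (MGD2) by DESeq2, without an experiment term, with the replicate block and without library 2 of experiment B. Phr1 phl1 against phr1, with 0, had 1 by upper-quartile scaling, DESeq2, limma-voom and C, D and E alone, and 2 without library 2 of experiment B. SynCom against no bacteria in phr1 phl1 at low Pi, with 6, had 2 without an experiment term, where 679 of all genes were called, against 2582. The Pi by SynCom interaction in phr1 phl1, with 3, had 0 with summed libraries, where 7 of all genes were called, against 793. The phr1 by Pi interaction, with 1, had 2 by upper-quartile scaling and DESeq2 and 0 with summed libraries and in C, D and E alone, where phr1 phl1 by Pi, with 5, had 2. Over all genes phr1 by Pi had 505 calls, 775 by DESeq2, 35 with summed libraries and 2 in C, D and E alone. For phr1 phl1 by Pi it was 3083, and 838 in C, D and E alone.

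With each experiment left out, counts ran from 4 to 7 for low against high Pi in phr1 phl1 with SynCom, 3 to 6 for SynCom in phr1 phl1 at low Pi, and 3 to 6 for phr1 phl1 against Col-0 at low Pi with SynCom. They ran from 0 to 1 for that contrast at high Pi without bacteria, 0 to 2 for phr1 phl1 against phr1, 0 to 4 for Pi by SynCom in phr1 phl1 and 0 to 2 for phr1 by Pi. Over all genes, leaving out D gave 739 calls, against 3641, for low against high Pi in phr1 phl1 with SynCom. It gave 597, against 2582, for SynCom in phr1 phl1 at low Pi, and 5, against 793, for Pi by SynCom in phr1 phl1. For phr1 phl1 against Col-0 at low Pi with SynCom it gave 3725, against 6820, and for phr1 by Pi 65, against 505. The MGD ratio of phr1 phl1 with SynCom ran from 2.64 to 2.78, where 2 remaining experiments cannot bring the exact permutation p under 0.05, and that of phr1 without bacteria from 0.37 to 0.54, past the test without A. DGD2 over DGD1 ran from 0.24 to 0.39 in Col-0, past the test without A, and from -0.63 to -0.26 in phr1, past it without C. A pseudocount of 1 brought the MGD ratio of phr1 without bacteria to 0.42 and DGD2 over DGD1 of phr1 with SynCom to -0.45, both past the test. The replicate block left 23 of 26 counts as they were: 8 in place of 7 for low against high Pi in Col-0 with SynCom, 5 in place of 6 for SynCom in phr1 phl1 at low Pi and 1 in place of 0 as above. MGD3 at high Pi, near 1 CPM in phr1 and Col-0, is measured with the least precision, and phr1 phl1 has the fewest and shallowest libraries.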
